A study of Homo sapiens with 9 samples.

Results

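The genes of the INO80 chromatin remodeling complex were examined for open chromatin in HepG2 cells, a human liver cancer cell line, after siRNA against INO80 itself. The 10 genes were INO80, INO80B, INO80C, INO80D, INO80E, ACTR5, ACTR8, NFRKB, MCRS1 and YY1, of 20136 annotated protein-coding genes. Peaks were assigned to a gene when they overlapped its body or the 10 kb on either side, and 42 of the 111260 accessible regions of the series lay in these windows. The assay was ATAC-seq: a transposase cuts exposed DNA and attaches sequencing adapters there. Every culture received 50 nM siRNA for 72 h. The 3 groups were a non-targeting control (NTG) and the siRNAs siINO80#1 and siINO80#2 against INO80, each with 3 replicates from independent transfections, 9 samples in all. The authors deposited 1 peak list per group. There was therefore no replicate value, no test between groups could be made, and every difference below is a description of 3 lists. ATAC-seq does not measure INO80 mRNA or protein, so the depletion itself could not be checked in these values.

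INO80 is the ATPase that slides nucleosomes and acts on nucleosomes that carry the histone variant H2A.Z. Its partners sit on it in modules. The ATPase module holds INO80B, INO80C and ACTR5 with the helicases RUVBL1 and RUVBL2, a second module holds the actin-related proteins ACTR8 and ACTL6A with the zinc finger factor YY1, and a module found in animals but not in yeast holds INO80D, INO80E, NFRKB, MCRS1, TFPT and UCHL5. The complex is known for work at promoters and in DNA repair and replication. In bulk cells, fewer cells with an open site and less open DNA per cell cannot be told apart.

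A start-site peak was a peak interval within 1 kb of the start of the canonical transcript (GENCODE, GRCh37). The number of reads at the summit of a peak was solved from the deposited fold enrichment and −log10 p. Fold enrichment was ranked within each list, and a percentile of 80 means a peak stronger than about 80 percent of the list. The median number of reads at a summit was 20 in NTG, 24 in siINO80#1 and 25 in siINO80#2, and the weakest called summits had 12, 14 and 15 reads, so a gene without a peak is not at a level of 0. A call needs more reads where the local background is higher. The lists held 69730, 69333 and 53113 intervals. Of 11 liver marker genes, 8 had a start-site peak in all 3 lists, among them APOA1, HNF4A and FOXA2; ALB and AFP had one in some lists and FGB in none. Of 9 annotated marker genes of blood, endothelium, muscle and neuron, CD14 had a start-site peak in all 3 lists and MYF5 in siINO80#1, and the other 7 had none.

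The sequences before the start sites of INO80, ACTR5, ACTR8 and MCRS1 are shown because these genes hold the targeted ATPase, the start-site value farthest from the control after centring, a match to the motif of the member YY1, and the start-site peak missing from a list. Each runs 5′ to 3′ on the strand of the gene and ends 1 base before the start. Capitals mark matches to 7 motifs searched on both strands: YY1 AANATGGC, NRF1 GCGCATGC, ETS CCGGAAG, NFY CCAAT, SP GGGCGG, CRE TGACGTCA and AP-1 TGANTCA.
INO80, chr15:41408479-41408678, minus strand: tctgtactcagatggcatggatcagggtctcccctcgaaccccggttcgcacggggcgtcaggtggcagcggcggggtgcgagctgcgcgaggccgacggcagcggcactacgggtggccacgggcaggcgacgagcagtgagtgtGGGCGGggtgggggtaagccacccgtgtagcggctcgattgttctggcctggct
ACTR5, chr20:37376903-37377102, plus strand: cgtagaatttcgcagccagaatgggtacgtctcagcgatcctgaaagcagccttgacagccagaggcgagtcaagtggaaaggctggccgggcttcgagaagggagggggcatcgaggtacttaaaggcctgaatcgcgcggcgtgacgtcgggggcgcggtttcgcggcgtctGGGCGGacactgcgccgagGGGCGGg
ACTR8, chr3:53916180-53916379, minus strand: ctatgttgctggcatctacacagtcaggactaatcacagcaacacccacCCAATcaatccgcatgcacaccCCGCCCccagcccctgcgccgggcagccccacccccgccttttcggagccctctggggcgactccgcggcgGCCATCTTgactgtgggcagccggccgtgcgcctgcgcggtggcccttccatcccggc
MCRS1, chr12:49961926-49962125, minus strand: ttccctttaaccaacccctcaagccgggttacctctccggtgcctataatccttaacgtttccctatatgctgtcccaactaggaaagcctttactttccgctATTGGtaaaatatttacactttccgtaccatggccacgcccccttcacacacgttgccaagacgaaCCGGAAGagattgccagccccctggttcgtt

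In the 250 bases before the start, a YY1 match was present in INO80E and ACTR8, against 3.54% of 20132 protein-coding promoters. The ACTR8 match lay 58 to 51 bases before the start and the INO80E match 177 to 170 bases before it, both antisense. An ETS match was present in INO80B, INO80E and MCRS1, against 11.8% of promoters. An NFY match was present in INO80C, ACTR5, ACTR8 and MCRS1, against 34.2%. An SP match was present in 6 of the 10 genes, against 58.7%, and the YY1 promoter alone held 7 matches, some of them overlapping. None of the 10 promoters held the NRF1, CRE or AP-1 letters, which 3.81%, 2.39% and 4.73% of promoters hold. INO80D held no match to any of the 7. The median GC content was 63.2% in the 10 promoters and 63.2% in all, and ranged from 53.2% (INO80C) to 83.2% (YY1). A match is a description of letters and was not tested as a binding site.

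Nearly all members had an open start site in every list. All 10 had a start-site peak in NTG, where 56.2% of all protein-coding genes had one. All 10 had one in siINO80#1, where the share of all genes was 56.0%. In siINO80#2, 9 of 10 had one, against 49.4% of all genes, and MCRS1 did not. Thus 9 of 10 members had a peak in all 3 lists, against 47.3% of all genes. Start sites with a peak in NTG and siINO80#1 and none in siINO80#2 made up 1087 of 10618 genes, or 10.2%, and MCRS1 was 1 of the 10 members. The peaks were of middling strength among start sites. The median percentile of the members was 74.5 in NTG, 79.2 in siINO80#1 and 79.8 in siINO80#2, and that of all genes with a start-site peak was 79.6, 79.2 and 76.2. The median number of reads at the summit was 42, 56 and 46 in the members and 40, 49 and 43 in all genes.

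**Figure D1:**
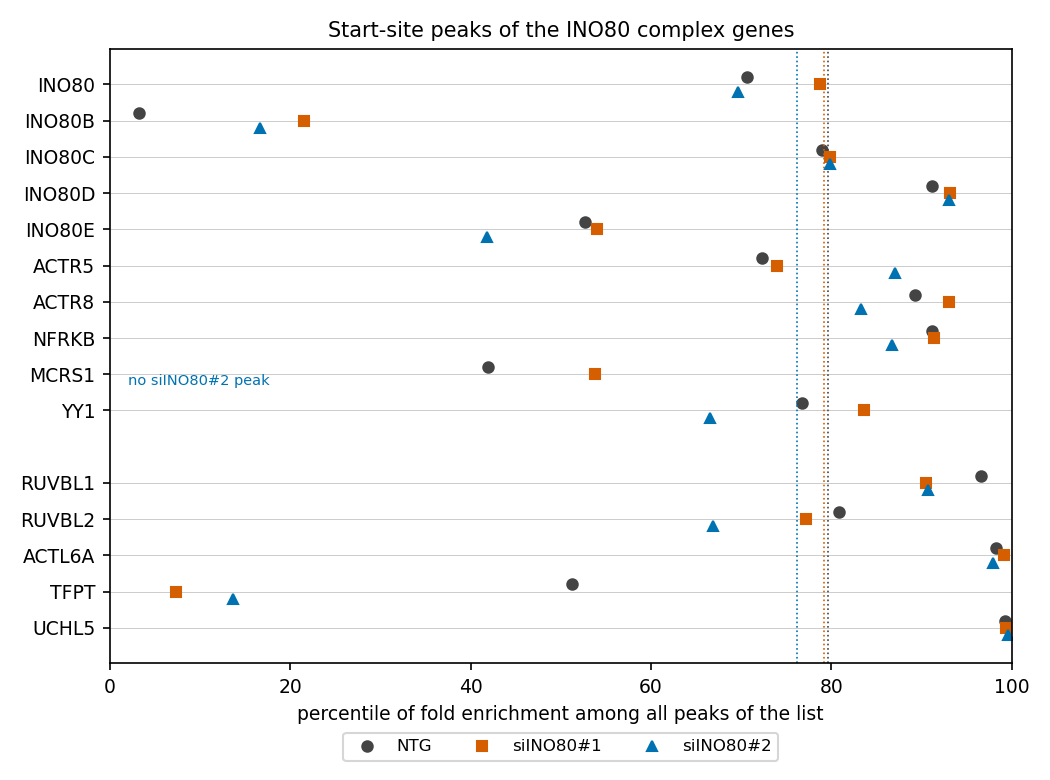
Percentile of fold enrichment of the start-site peak within each peak list (x axis, 0 to 100) for the 10 member genes and, below the gap, the other 5 subunits. Symbols stand for the 3 lists and dotted lines mark the median of all protein-coding genes with a start-site peak in that list. INO80B lies lowest among the members, at 3.21 in NTG, and INO80D, ACTR8 and NFRKB lie above 83 in every list.

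To set the lists side by side, the reads at the summit in each siINO80 list were divided by those in NTG and centred on the median ratio of all protein-coding genes with a start-site peak in both lists. This median was 1.23 for siINO80#1 over 10618 genes and 1.00 for siINO80#2 over 9655 genes. The lowest backgrounds of the lists gave another scaling, 1.35 and 1.397, that is, lower centred values by 0.14 and 0.48 on the log2 scale. The centred log2 ratio had a median of 0.20 over the 10 members in siINO80#1 and of 0.24 over 9 members in siINO80#2, against 0 for all genes by construction. With the lowest backgrounds these medians were 0.06 and −0.24, so that the sign for siINO80#2 turned with the scaling. A ratio beyond 1.5-fold either way was used as the limit. No member passed it in siINO80#1, where 8.96% of all genes did, and ACTR5 passed it in siINO80#2, where 10.2% did. With the lowest backgrounds no member passed it in siINO80#1, where 1.8% of all genes were higher and 10.2% lower. In siINO80#2 ACTR8 alone passed it, on the lower side, where 0.269% of all genes were higher and 38.8% lower. Intervals below are exact 95% intervals of the ratio of the counts and cover counting error only. Each ratio compares the strongest summits of the lists concerned, which can lie at different positions.

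**Figure D2:**
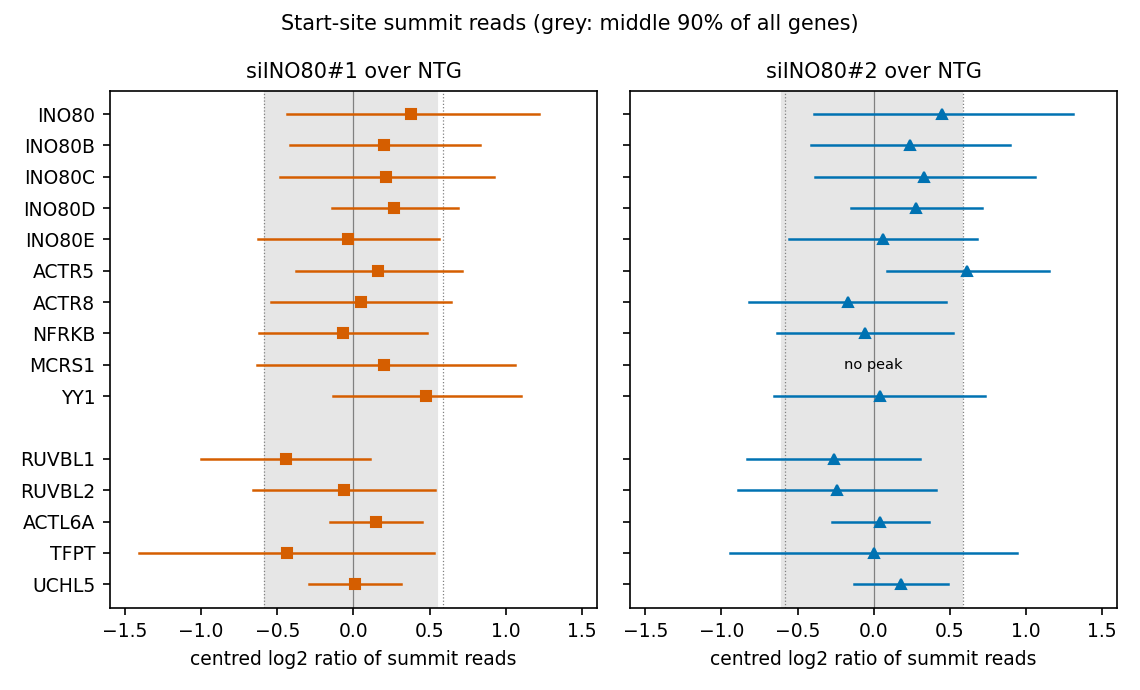
Centred log2 ratio of reads at the start-site summit (x axis), siINO80#1 over NTG on the left and siINO80#2 over NTG on the right, with exact 95% counting intervals as lines. Grey marks the middle 90% of all protein-coding genes and dotted lines the 1.5-fold limit. ACTR5 lies at 0.61 in siINO80#2, and the interval of every other member holds 0.

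INO80, the ATPase and the target of both siRNAs, lies at chr15:41271078-41408478 on the minus strand. Its start-site peak had 22 reads at the summit in NTG, 35 in siINO80#1 and 30 in siINO80#2. The percentiles were 70.7, 78.7 and 69.6, and the centred log2 ratios were 0.38 (−0.43 to 1.22) and 0.45 (−0.40 to 1.31), so that both intervals held 0. With the lowest backgrounds the ratios were 0.24 and −0.04. The NTG summit behind these ratios lay 403 bp after the start, beyond the end of both siINO80 peaks. The ratios therefore compare different positions. The extent of the peak also differed between lists. In NTG it spanned 1548 bp with 5 summits from 382 bp before to 710 bp after the start, in siINO80#1 823 bp with 2 summits, and in siINO80#2 610 bp with 1 summit. Both siINO80 peaks ended within 200 bp after the start, whereas the NTG peak reached 915 bp into the gene. The local background was 4.1 reads in NTG, 6.27 in siINO80#1 and 6.59 in siINO80#2. From upstream to downstream, the 5 NTG summits had 20, 14, 15, 22 and 17 reads. Those of 22 and 17 reads lay beyond the end of both siINO80 peaks. The weakest called summits had 14 reads in siINO80#1 and 15 in siINO80#2. The median width over all genes with a start-site peak was 757, 782 and 698 bp. Whether the extent differed beyond the calling limit was not tested. All summits of the siINO80 peaks lay upstream, at 83 and 309 bp before the start in siINO80#1 and 98 bp in siINO80#2. The protein-coding genes whose 3 start-site percentiles were nearest to those of INO80, among 9530 genes, were RBKS and BABAM2, which share 1 peak, and PTPRG, at Euclidean distances of 1.68, 1.68 and 1.91 percentile points over the 3 lists.

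**Figure D3:**
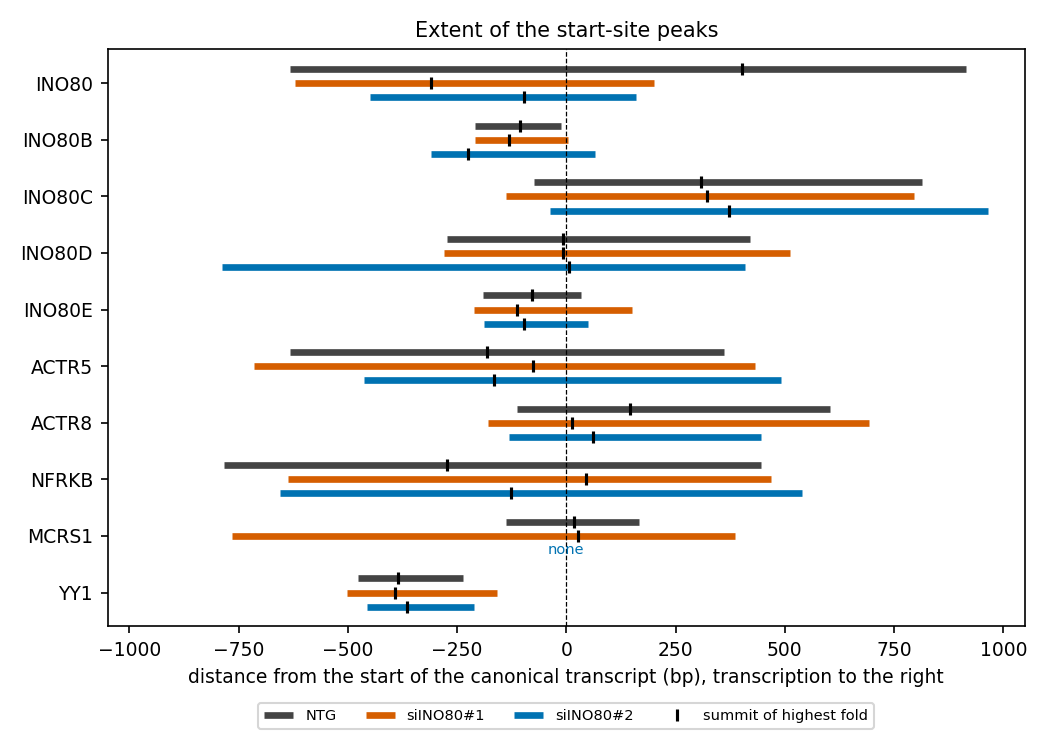
Extent of the start-site peak of each member (bars) in the 3 lists, as the distance in bp from the start of the canonical transcript with transcription to the right; ticks mark the summit of highest fold enrichment. The INO80 peak is longest in NTG (1548 bp), MCRS1 has no siINO80#2 peak, and the YY1 peaks end before the start.

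In the ATPase module, INO80B, INO80C and ACTR5 differed in strength. INO80B, the counterpart of yeast Ies2, had 39, 55 and 46 reads at the summit in NTG, siINO80#1 and siINO80#2, but on a high local background of 16.1, 21.0 and 17.6 reads, so that its percentiles were 3.21, 21.5 and 16.7, the lowest of the members in each list. Its centred log2 ratios were 0.20 (−0.42 to 0.83) and 0.24 (−0.41 to 0.89). Cut to equal list size by fold enrichment, NTG and siINO80#1 no longer held this peak. INO80C, the counterpart of yeast Ies6, had 31, 44 and 39 reads and percentiles of 79.0, 79.8 and 79.8, the most even of the members. Its centred log2 ratios were 0.21 (−0.49 to 0.92) and 0.33 (−0.39 to 1.06).

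ACTR5, the actin-related protein that pairs with INO80C, had 51 reads at the summit in NTG, 70 in siINO80#1 and 78 in siINO80#2. The centred log2 ratio was 0.16 (−0.38 to 0.71) in siINO80#1 and 0.61 (0.09 to 1.15) in siINO80#2, the latter higher than in 95.9% of genes. In siINO80#2 the percentile was 87.1, against 72.3 in NTG and 74.0 in siINO80#1. With the lowest backgrounds the siINO80#2 ratio was 0.13, within the 1.5-fold limit. ACTR5 lies on chromosome 20, of which HepG2 carries extra copies; copy number was not measured here.

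ACTR8, an actin-related protein that binds nucleosomes, had 45, 57 and 40 reads and percentiles of 89.3, 93.0 and 83.3. Its centred log2 ratios were 0.05 (−0.54 to 0.64) and −0.17 (−0.82 to 0.48), the latter −0.65 with the lowest backgrounds. YY1, the sequence-specific factor of the complex, had 37, 63 and 38 reads, and siINO80#1 was the highest list. Its centred log2 ratios were 0.47 (−0.13 to 1.10) and 0.04 (−0.65 to 0.73). The YY1 peak did not cover the canonical start in any list. Its summit lay 385, 392 and 364 bp upstream, between that start and a start of the lncRNA ENSG00000258982 on the other strand, 589 bp upstream. The 5′ end of the YY1 gene record lies farther upstream, at chr14:100704635, so the peak is inside that record.

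In the animal-specific module, INO80D had the most reads at a start site of the members. They numbered 84 in NTG, 124 in siINO80#1 and 102 in siINO80#2, at percentiles of 91.2, 93.1 and 93.0. The summit lay 8 bp before, 7 bp before and 5 bp after the start, the least spread of the 9 members with a peak in all 3 lists. NFRKB had 54, 63 and 52 reads and percentiles of 91.2, 91.4 and 86.7. INO80E had 46, 55 and 48 reads and percentiles of 52.7, 54.0 and 41.8, and a transcript of HIRIP3 on the other strand starts 167 bp upstream, inside the same peak. Centred log2 ratios of the 3 genes ranged from −0.07 to 0.28 and every interval held 0.

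MCRS1, a protein also found in the NSL acetyltransferase complex, had the weakest of the called start sites by reads in NTG, 22, together with INO80. In NTG its peak was 305 bp long at percentile 41.9, with a further interval of 168 bp and 20 reads between 484 and 317 bp before the start. In siINO80#1 1 interval of 1153 bp spanned both, with 31 reads at percentile 53.8, a centred log2 ratio of 0.20 (−0.63 to 1.06). In siINO80#2 no peak was called anywhere in its window, and its local background in that list, which sets the reads a call needs, is not known. At a −log10 q of at least 5 the NTG peak was lost as well. A transcript of PRPF40B starts 76 bp upstream on the other strand, so the peak cannot be given to MCRS1 alone. INO80B and INO80C likewise share their starts with annotated readthrough genes, INO80B-WBP1 and ENSG00000267140, 1 and 20 bp away. On the other strand, a transcript of INO80D-AS1 starts 251 bp after the INO80D start, inside its peak in every list. The lncRNA ENSG00000289891 likewise starts 263 bp after the INO80C start. The miRNA AC012467.1 starts 117 bp before ACTR8 on the same strand.

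The other 5 subunits, which the rule did not include, had start-site peaks in all 3 lists. Their median percentile was 96.6 in NTG, 90.5 in siINO80#1 and 90.7 in siINO80#2, and the median centred log2 ratios were −0.06 and 0.00. UCHL5, a deubiquitinase, had 167, 206 and 189 reads, and ACTL6A, shared with other remodelers, had 162, 220 and 167. The helicase RUVBL1 had 60, 54 and 50 reads and its partner RUVBL2 had 46, 54 and 39. TFPT had 21, 19 and 21 reads, and its percentile was 51.2 in NTG, 7.36 in siINO80#1 and 13.7 in siINO80#2. None of the 5 was beyond 1.5-fold on the centred scale. With the lowest backgrounds RUVBL1 was, at −0.59 in siINO80#1 and −0.75 in siINO80#2, and RUVBL2 at −0.72 in siINO80#2, under a scaling by which 10.2% and 38.8% of all genes lay beyond 1.5-fold on the lower side. Of 18 genes of the related SRCAP and TIP60 complexes, 16, 17 and 16 had a start-site peak in NTG, siINO80#1 and siINO80#2, with median centred log2 ratios of 0.07 and 0.12 over the 16 with a peak in both lists.

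Away from the start-site peaks the members had 26 other peaks in NTG, 19 in siINO80#1 and 16 in siINO80#2. Merged by overlap of 1 bp or more, these formed 32 regions. In all 3 lists there were 10 of them (31.2%, exact 95% interval 16.1 to 50.0), against 27.3% of 67695 such regions of all protein-coding genes. In NTG alone there were 10 (31.2%), against 25.1% of all. Shared by siINO80#1 and siINO80#2 but missing from NTG there was 1 (3.12%), against 4.89%. Of the rest, 5 were in siINO80#1 alone, 2 in siINO80#2 alone, 3 in NTG with siINO80#1 and 1 in NTG with siINO80#2. The shares were near those of all genes.

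**Figure D4:**
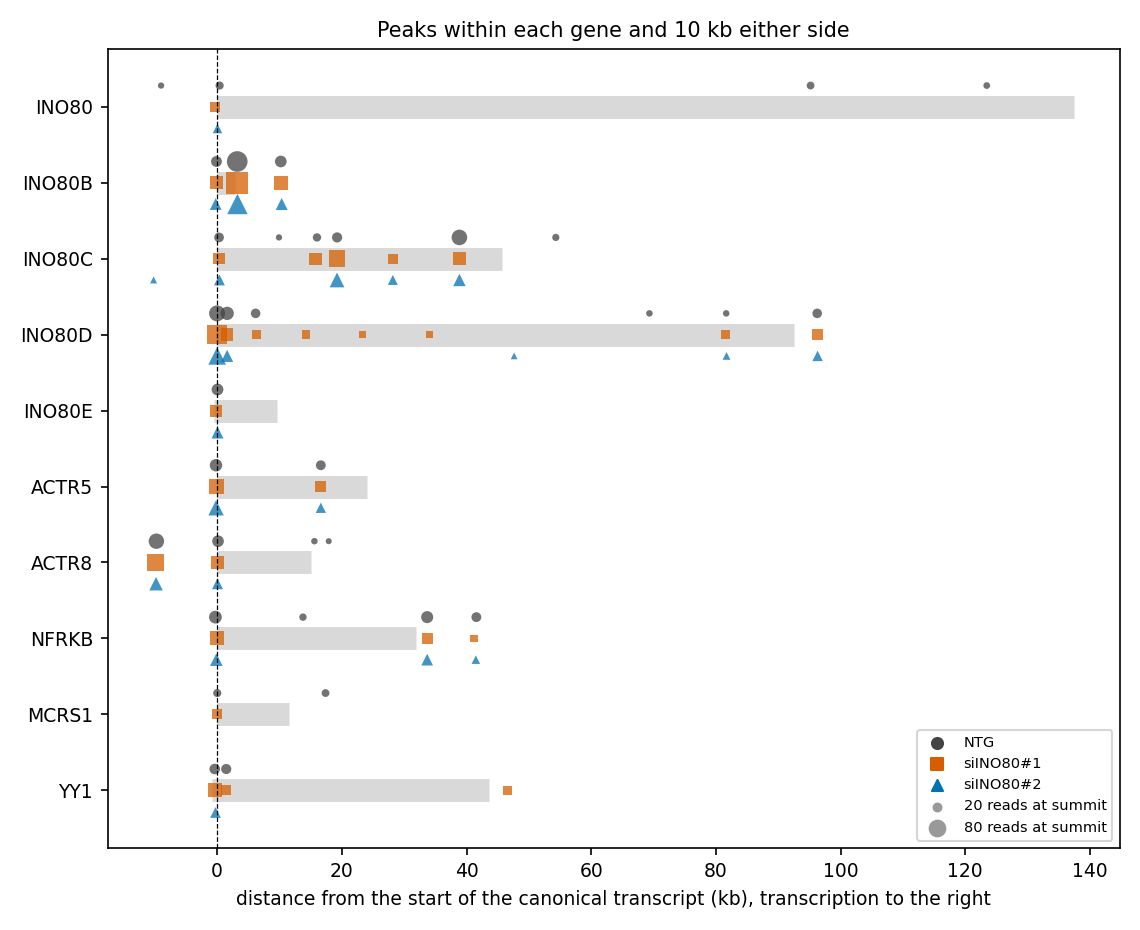
Summits of all regions in the window of each member by distance in kb from the start of the canonical transcript, transcription to the right. Grey bars are the annotated gene, symbols the 3 lists, and symbol area the reads at the strongest summit. INO80 has peaks beyond its start in NTG alone, INO80E has none in any list, and INO80C and INO80D have the most.

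INO80 had 3 other peaks in NTG and 0 in either siINO80 list. They lay in intron 29 of 36 exons with 15 reads, over exon 26 with 20 reads, and in the upstream flank, about 9 kb before the start, with 13 reads. Their percentiles were 47.4, 68.9 and 13.5, on local backgrounds of 3.82, 3.82 and 4.31 reads. The exon 26 peak thus ranked near the INO80 start-site peak in NTG, at 70.7. Whether the missing calls reflect the calling limit was not tested. The lowest background was 5.16 reads in siINO80#1 and 5.34 in siINO80#2, where the weakest called summits had 14 and 15 reads. Regions of NTG alone made up 25.1% of such regions of all protein-coding genes. ACTR8 also had 2 peaks in NTG alone, with 12 and 14 reads, in its downstream flank, and MCRS1 1 with 20 reads. Nowhere among the members did a region of NTG alone exceed 20 reads.

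Several other peaks lay at start sites of neighbouring genes, and the one with the most reads was that of WBP1. In the INO80B window, the region at the WBP1 start, chr2:74684616-74685652, had 140, 163 and 137 reads in NTG, siINO80#1 and siINO80#2, above the 39, 55 and 46 at the INO80B start itself. The region at the MOGS start had 45, 66 and 48. In the ACTR8 window the SELENOK start had 78, 88 and 60 reads. A lncRNA start, ENSG00000289223, about 34 kb downstream of the NFRKB start, had 48, 40 and 45. All 4 were present in every list, and the intervals of their centred log2 ratios held 0.

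After centring, the regions of INO80C held all the differences beyond 1.5-fold among the shared regions of the members, and they went both ways. The sequences around the summits of 3 INO80C regions are shown, each 200 bases on the plus strand, with the motif matches in capitals as above. The intron 4 region among them had no NTG peak and so no ratio to NTG. The shared intron 1 region beyond the limit is not shown.
INO80C intron 3, chr18:33058622-33058821: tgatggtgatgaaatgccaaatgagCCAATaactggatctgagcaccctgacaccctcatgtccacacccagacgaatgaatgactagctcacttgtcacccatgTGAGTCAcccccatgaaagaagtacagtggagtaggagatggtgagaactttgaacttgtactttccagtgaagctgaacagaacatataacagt
INO80C intron 4, chr18:33049670-33049869: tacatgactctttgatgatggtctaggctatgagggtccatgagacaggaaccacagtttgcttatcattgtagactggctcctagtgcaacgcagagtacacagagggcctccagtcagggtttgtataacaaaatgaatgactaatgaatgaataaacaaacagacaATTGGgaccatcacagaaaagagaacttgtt
INO80C beyond the canonical transcript, chr18:33038962-33039161: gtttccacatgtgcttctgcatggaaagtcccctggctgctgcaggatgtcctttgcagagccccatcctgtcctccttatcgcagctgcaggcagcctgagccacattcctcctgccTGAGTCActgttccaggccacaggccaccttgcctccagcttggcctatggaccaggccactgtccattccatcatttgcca

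The first region, chr18:33058437-33059272, reaches over exon 3 of 5, with its summits in intron 3 about 19 kb from the start. It had 34 reads in NTG, 90 in siINO80#1 and 72 in siINO80#2. Both siINO80 lists were higher, by centred log2 ratios of 1.14 (0.56 to 1.76) and 1.00 (0.40 to 1.64), now centred on all regions shared with NTG. These were above 99.0% of 38361 and 97.3% of 32774 regions. The percentile of the peak was 78.9 in NTG, 97.6 in siINO80#1 and 95.2 in siINO80#2. An AP-1 match began 5 bases after the summit of siINO80#1, the list in which the fold enrichment was highest. AP-1 is the dimer of JUN and FOS family factors.

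The intron 4 region, chr18:33049594-33049996, had no NTG peak, 33 reads in siINO80#1 and 33 in siINO80#2. Its percentile was 77.6 in each siINO80 list, and no other region of the members was shared by the siINO80 lists while missing from NTG. The log2 ratio of siINO80#2 to siINO80#1 was 0.18 (−0.56 to 0.92) after centring. It held no AP-1 match and 1 NFY match. A further intron 1 region, about 16 kb from the start, had 23 reads in NTG, 50 in siINO80#1 and no called peak in siINO80#2, the shortest list. Its centred log2 ratio in siINO80#1 was 0.86 (0.12 to 1.64). The summits compared lay 16015 bp from the start in NTG and 15784 bp in siINO80#1, so this ratio is not one of a single position.

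The region beyond the canonical transcript, chr18:33038422-33039360, lies within the gene record about 39 kb from the start. It had 80 reads in NTG, 59 in siINO80#1 and 51 in siINO80#2, and both siINO80 lists were lower, by centred log2 ratios of −0.70 (−1.21 to −0.20) and −0.73 (−1.27 to −0.21). Its percentile was 98.2 in NTG, 91.2 and 88.8. It held an AP-1 match as well, which began 18 bases after the summit of NTG. With the lowest backgrounds the directions of the 3 shared INO80C regions were kept, at 0.97 and 0.60 for intron 3, 0.69 for intron 1 in siINO80#1, and −0.87 and −1.13 for the last region. The INO80C start-site peak, by contrast, had an interval that held 0 in both lists.

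**Figure D5:**
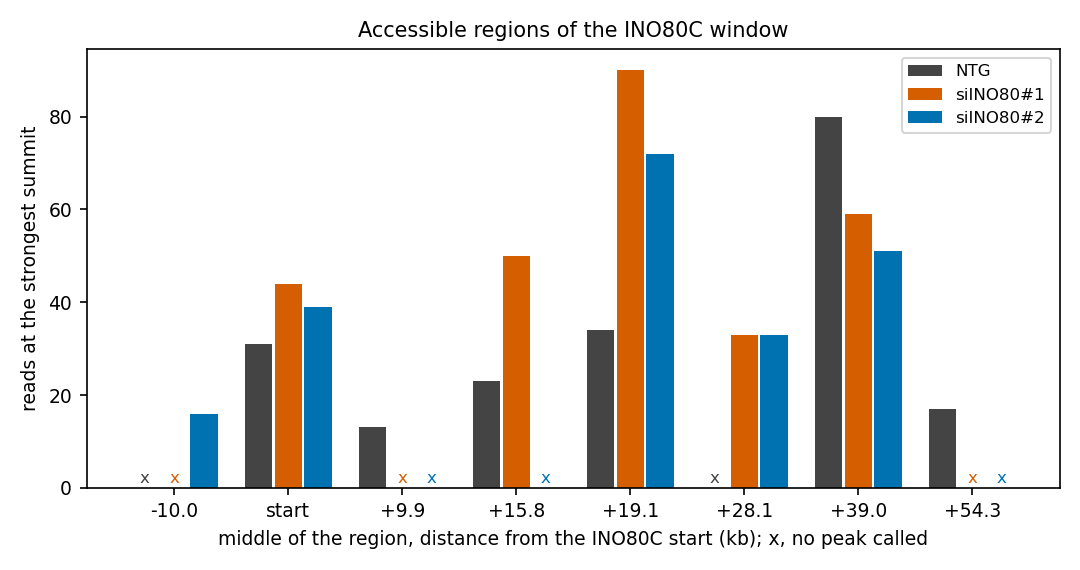
Reads at the strongest summit (y axis, as recovered, not scaled between lists) of the regions in the INO80C window, ordered by the distance of their middle from the start in kb. A cross marks a list without a called peak. Reads at the intron 3 region are 34, 90 and 72, and at the region about 39 kb away 80, 59 and 51, in NTG, siINO80#1 and siINO80#2.

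Over all members, 3 of 13 regions shared by NTG and siINO80#1 lay beyond 1.5-fold, 2 higher and 1 lower, against 17.6% of all shared regions, and 2 of 11 shared by NTG and siINO80#2, 1 higher and 1 lower, against 20.5%. After centring all of them were in INO80C. With the lowest backgrounds, 2 of 13 were higher and 5 lower in siINO80#1, against 5.0% and 16.3% of all shared regions, and 1 of 11 was higher and 4 lower in siINO80#2, against 2.81% and 34.0%. The regions past the limit under this scaling alone lay in INO80D, ACTR8, NFRKB and YY1. The 2 siINO80 lists are compared with the same NTG list, so their values are not independent.

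INO80D had 9 other regions, the most of the members, 3 of them in all lists. The first, at the start of the antisense INO80D-AS1, had 58, 51 and 48 reads in NTG, siINO80#1 and siINO80#2, the next, over exon 11, the last, had 14, 24 and 20, and one downstream of the gene had 30, 37 and 36. The intervals of their ratios held 0. The other 6 had at most 30 reads and were missing from at least 1 list. ACTR5 had 1 other region, in intron 5, with 32, 42 and 35 reads and an AP-1 match that began 4 bases before the summit. YY1 had a region in intron 1 of its canonical transcript with 34 reads in NTG, 30 in siINO80#1 and no called peak in siINO80#2. It overlaps an exon of another YY1 transcript and lies within 1 kb of another annotated YY1 start. INO80E had no other peak in any list.

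Around the summits of the 32 other regions an AP-1 match was found in 5 (15.6%), against 15.6% of 111259 regions of all lists, start-site regions included. Of the 5, 4 were in regions of all 3 lists, in INO80C, INO80D and ACTR5. The AP-1 share among all regions found in all 3 lists was not computed, so this count has no comparison. An NFY match was found in 11 (34.4%), against 25.5%, an SP match in 5 (15.6%), against 10.5%, and an ETS match in 2 (6.25%), against 2.32%. No YY1, NRF1 or CRE match was found.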

How the data were processed

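ATAC-seq of HepG2 cells gave 9 samples in 3 groups, taken from the sample titles. The submitters' processing notes name Trim Galore 0.4.1, Bowtie2, SAMtools, MACS2 and deepTools 2.2.4, with the build hg19; their roles and settings, the handling of the transposase offset and of duplicates are not given in the sources used here. The authors deposited 1 peak list per group, made from its 3 replicates. Per the file layout each peak has a deposited score, a fold enrichment, which is a ratio of summit reads to local background, and −log10 values of p and q, of which the lowest −log10 q was 1.30 in every list. Sequencing depth is not in the lists. No column of per-sample values was present.

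Reads at the summit k and background λ were solved from fold enrichment, (k + 1)/(λ + 1), and the Poisson −log10 p on the assumption of the MACS2 formulas. The largest misfit in −log10 p was 0.00121, against 0.0275 or more for the neighbouring whole number. Intervals with several summits were counted once, by the summit of highest fold enrichment. Peaks and GENCODE 44 lifted to GRCh37 were joined by overlap of 1 bp, and sequences were read from the GRCh37 genome. Scripts used scipy 1.17.1 with pandas 2.3.3 and numpy 2.4.6 under Python 3.11.15, samtools 1.23.1 and pysam 0.24.0 for sequences, and matplotlib 3.10.9 for figures. They were tested on simulated data, overlaps against bedtools 2.31.1.

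The genes, the lists and the motifs were chosen with earlier results of these data known. The named genes were all 10 members, the other 5 subunits, the neighbours whose starts lie under a described peak, and the 3 genes nearest to INO80 by percentiles. The SRCAP and TIP60 list was given as counts. Alternatives were other definitions of the start site, −log10 q of at least 5, equal list sizes, merging within 500 bp, 5 kb or no flank, 50% overlap, other rankings and another scaling; the scaling of single peaks and regions was added after seeing the data.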

Additional observations from a re-analysis of the deposited data

How the results depend on the processing

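No paired analysis was possible because the replicate letters are shared by the groups but each group has 1 pooled list; for the same reason no replicate could be left out. The number of members with a start-site peak in all 3 lists was 9, and ranged from 7 to 9 over the 7 alternatives. When the peak had to cover the start it was 7, without INO80B and YY1 in NTG, YY1 in siINO80#1, and MCRS1 and YY1 in siINO80#2. MCRS1 had no siINO80#2 peak under any of the 7. With a −log10 q of at least 5, the other peaks of the members numbered 14, 12 and 9 in NTG, siINO80#1 and siINO80#2 in place of 26, 19 and 16, and within the gene body alone they numbered 14 in NTG, 13 in siINO80#1 and 10 in siINO80#2. Ranked by −log10 q, the median percentile of the members was 78.6, 83.9 and 79.2, and ranked among start-site peaks alone it was 41.6, 49.8 and 54.9, in place of 74.5, 79.2 and 79.8. The share of other regions in all 3 lists was 23.1% to 50% over its alternatives. The median start-site log2 ratio of siINO80#2 was 0.24 after centring, 0.15 from fold enrichment and −0.24 with the lowest backgrounds. That of siINO80#1 was 0.20, 0.14 and 0.06. Counting error at summits of 20 to 80 reads limits every single ratio, and the spread between transfections was not measured here.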
